A study of Homo sapiens with 8 samples.

Results

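IL-6 family cytokine signaling was described here through 10 genes of human podocytes, namely the receptor genes IL6R, IL6ST, LIFR and OSMR, the kinase genes JAK1 and JAK2, the transcription factor gene STAT3 and the feedback inhibitor genes SOCS1, SOCS2 and SOCS3. The genes were chosen by name as receptors of IL-6, LIF and OSM and the steps below them, and all 10 were found among the 29004 loci of the deposited gene table, each at a single locus that carries no other gene name. RNA sequencing was done on 8 samples of AB8/13, an immortalized human podocyte line that here carried a lentiviral, doxycycline-inducible wild-type LATS2 construct. In 4 samples (LATS2 OE) doxycycline at 125 ng/mL switched the construct on for 8 h, and another 4 samples of the line stayed untreated. Both groups carry the construct, and no group received doxycycline without it, so effects of the drug and of LATS2 cannot be told apart.

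The cytokines of this family share the receptor chain gp130, the product of IL6ST. IL-6 first binds its own receptor IL6R, whereas LIF and OSM bring gp130 together with LIFR or OSMR. The paired receptor chains activate JAK kinases, which phosphorylate STAT3, and STAT3 then enters the nucleus and turns on genes that include the SOCS inhibitors. SOCS proteins bind the receptors or the JAK kinases and shut the signal down, so that their mRNA is often read as a sign of recent cytokine signaling.

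Levels are given in FPKM, the number of fragments scaled to exon length and to sequencing depth. The table gives 1 pooled value per group, so no value has an SD and no difference was tested against the spread between samples. Whether these 4 were grown as separate cultures is not given, and the depth per sample is unknown. In most values of at least 1 FPKM the decimal point had been moved, which leaves such a level known only up to a power of 10. The point was placed so that both groups of a gene were as near to each other as possible. Any other placement would change the ratio by a factor of 10 or more. A gene with a true difference beyond 3.16-fold can thus be given a wrong ratio, and with it the wrong direction. Among 14683 named loci with at least 0.1 FPKM in both groups, the place was known for 2598 loci, and in 1 of these the groups were more than 3.16-fold apart. This count takes only loci with a single reading in both groups, such as values below 1 FPKM. A large difference can itself take a locus out of it, so it says little about the 11459 loci with several possible levels. A gene is called higher or lower below where the group with more of it stood at least 25% above the other, which is a limit of size and not a test.

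For LATS2 itself no ratio is given, since a nearest placement cannot be assumed for the gene that was overexpressed. Its digits allow a ratio of LATS2 OE over untreated cells of 0.0201, 0.201, 2.01, 20.1 or 201, so the table values do not check the sample labels. Of 13 podocyte markers, 7 reached 0.1 FPKM in both groups and 5 stayed below it in both. PODXL, SYNPO, CD2AP, VIM and ACTN4 had at least 1 FPKM, and WT1 had 0.413 FPKM in untreated and 0.412 FPKM in LATS2 OE cells. NES, which encodes the intermediate filament protein nestin, was the podocyte marker past the 25% limit used below, with 0.539 and 0.917 FPKM, 1.70-fold the untreated level, and its part in the results was not tested. The slit diaphragm gene NPHS1 stood at 0.00875 and 0.00616 FPKM, so a defining marker of mature podocytes was nearly absent. Below 0.1 FPKM in both groups were 4 of 7 leukocyte markers, 5 of 5 endothelial, 1 of 4 mesangial and stromal, 5 of 6 tubular and 3 of 3 hepatocyte markers. The pan-leukocyte marker PTPRC had 0.00234 and 0.00360 FPKM, while CD68, PDGFRB, ACTA2 and AQP1 reached at least 1 FPKM, and none of the 6 markers of other cell types with at least 0.1 FPKM in both groups was past the 25% limit.

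Of the 10 genes, SOCS1 and IL6R were higher in LATS2 OE cells and the other 8 lay within the limit of 25%. The share of named loci with at least 0.1 FPKM in both groups that were higher by this limit was 7.91%, and 6.03% were lower. With a limit of 20% the same 2 genes were past it, beside 10.2% of loci higher and 7.95% lower, and with a limit of 50% SOCS1 alone was, beside 2.7% higher and 2.32% lower. SOCS1 had 2.52-fold and IL6R 1.49-fold the untreated level. In bulk RNA such as this, a change in the number of cells that express a gene and a change in its RNA per cell cannot be told apart. The kinase genes, STAT3 and the shared receptor gene IL6ST differed by less than 10% between the groups. The median log2 ratio of the 10 genes was 0.07 (quartiles 0.0080 and 0.18), beside 0.0019 (quartiles -0.08 and 0.10) over the 14683 loci.

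The start regions of SOCS1 and IL6R, the genes past the limit, and of the SOCS relative CISH, which was past it too, are shown for the letters that STAT proteins and interferon regulatory factors are known to bind. Each line gives the 250 bases before the transcription start from RefSeq, build GRCh38.p14 (coordinates of this build are not those of the hg19 loci), written 5′ to 3′ on the strand of the gene. Capitals mark TTCNNNGAA, the core of STAT binding sites, and GAAANNGAAA on either strand, the core of interferon response elements.
SOCS1, chr16:11256205-11256454, minus strand: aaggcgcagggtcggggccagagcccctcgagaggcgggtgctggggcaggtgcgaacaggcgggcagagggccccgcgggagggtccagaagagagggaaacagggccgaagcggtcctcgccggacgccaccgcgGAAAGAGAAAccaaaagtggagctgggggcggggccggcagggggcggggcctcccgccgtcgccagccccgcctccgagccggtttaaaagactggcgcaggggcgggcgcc
IL6R, chr1:154405093-154405342, plus strand: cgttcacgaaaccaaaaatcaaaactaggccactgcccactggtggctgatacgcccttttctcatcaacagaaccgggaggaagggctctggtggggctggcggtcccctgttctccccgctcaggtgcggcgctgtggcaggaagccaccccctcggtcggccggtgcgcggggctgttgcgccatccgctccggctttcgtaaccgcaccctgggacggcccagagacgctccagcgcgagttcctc
CISH, chr3:50611775-50612024, minus strand: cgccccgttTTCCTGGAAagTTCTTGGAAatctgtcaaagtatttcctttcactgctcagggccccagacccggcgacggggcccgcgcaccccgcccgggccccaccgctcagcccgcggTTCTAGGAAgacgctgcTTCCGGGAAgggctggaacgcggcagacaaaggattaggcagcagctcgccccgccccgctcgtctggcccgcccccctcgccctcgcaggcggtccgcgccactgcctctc
The CISH window holds 4 matches to TTCNNNGAA, which start 241, 230, 129 and 112 bases before the transcription start, and no match stands in the SOCS1 and IL6R windows. SOCS1 has 1 match to GAAANNGAAA, 113 bases before the start. RefSeq windows of 300 bases, 250 before and 50 after a start, were found for 9 of the 10 genes, 17 windows in all, since several genes have more than 1 start. TTCNNNGAA stands in 2 of these 17 windows, both of LIFR, and in 7.66% of all 35116 windows. GAAANNGAAA stands in 1 of the 17 and in 3.57% of all windows. GGAATG, the core of TEAD sites, through which YAP acts, stands on either strand in 4 of the 17 windows, of JAK1, LIFR and SOCS3, and in 14.0% of all. These matches describe letters, not binding.

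IL6R encodes the receptor chain that gives a cell its own response to IL-6, and many cells other than hepatocytes and leukocytes have little of it. Its digits read 1.11 FPKM in untreated and 1.66 FPKM in LATS2 OE cells at the lowest possible level, or 11.1 and 16.6, or 111 and 166 FPKM. The group ratio was the same at each of these levels, a log2 ratio of 0.57. Under the placement used, 2.86% of the 14683 loci had a ratio at least as high, a share that misses larger rises placed wrongly. The next nearest placement of the IL6R digits would give a ratio of 0.149. The locus spans 64259 bp and matches the protein-coding gene IL6R on the plus strand of chromosome 1 in hg19, from 154377669 to 154441926 in GENCODE, with no antisense gene over its exons.

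**Figure D1:**
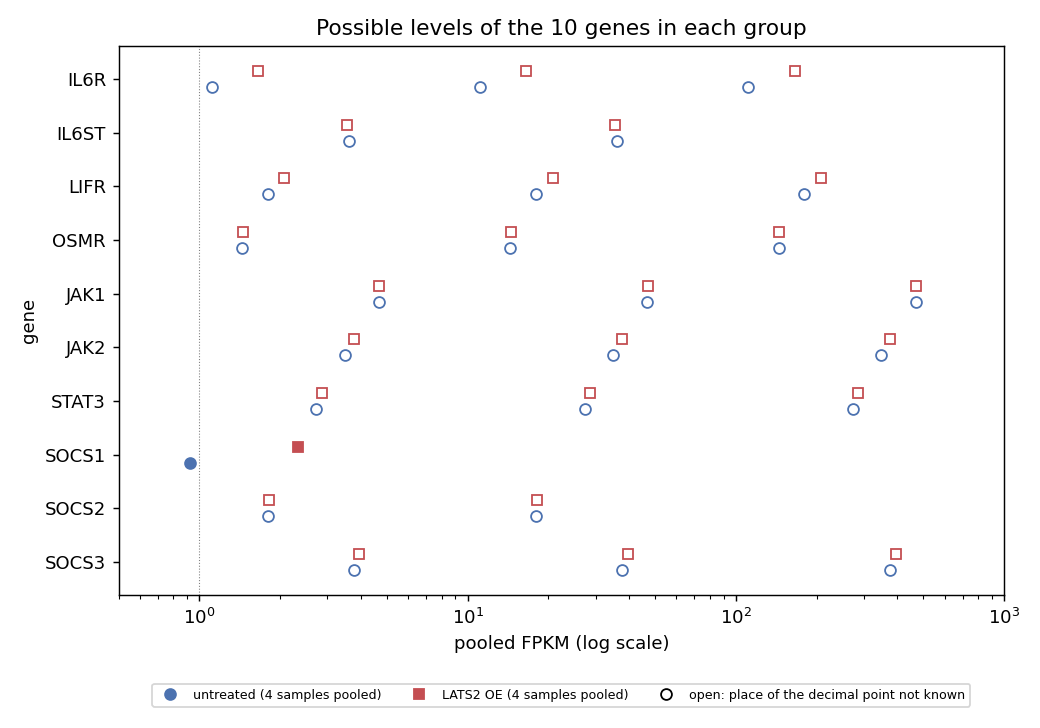
Possible pooled FPKM levels (log axis) of the 10 genes in untreated (circles) and LATS2 OE cells (squares), 4 samples pooled per group. Open symbols repeat at steps of 10 because the place of the decimal point is not known, and only the SOCS1 pair, 0.924 and 2.33 FPKM, is single under the placement used.

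IL6ST, which encodes the shared signaling chain gp130, stood at 3.61 and 3.54 FPKM or at 36.1 and 35.4 FPKM in untreated and LATS2 OE cells. Its log2 ratio of -0.03 was the lowest of the 10 genes. LIFR, the receptor chain for LIF, had lowest possible levels of 1.80 and 2.07 FPKM, a log2 ratio of 0.21 that stayed within the 25% limit. OSMR, the second receptor chain for OSM, had 1.44 and 1.45 FPKM at the lowest level, a log2 ratio of 0.0050. Of the 4 receptor genes only IL6R was thus past the limit, and under the placement used 13.5% of the loci had a ratio at least as high as LIFR.

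Reads of the libraries were, as far as the kit is named, not assigned to a strand, and antisense genes overlap exons of IL6ST, LIFR, OSMR, JAK1 and SOCS2. The overlap was 797 of 12060 exonic bases for IL6ST, 629 of 12159 for LIFR with LIFR-AS1, 229 of 7174 for OSMR with RICTOR, 10 of 13174 for JAK1 with RAVER2 and 277 of 6477 for SOCS2 with SOCS2-AS1. These overlaps were counted on annotated exons only, and some loci reach past the annotated gene. The JAK1 locus runs from 65210778 to 65432597, the annotated gene from 65298906 to 65533437. The LIFR locus is 1.47 times as long as its gene. Overlap in such outer parts was not counted. LIFR-AS1 had 0.0965 and 0.0756 FPKM and SOCS2-AS1 0.318 and 0.162 FPKM in untreated and LATS2 OE cells. At the lowest possible level RICTOR had 5.03 and 5.58 FPKM and RAVER2 5.26 and 5.40 FPKM, above the lowest possible levels of OSMR and JAK1, and no level was taken for the antisense gene of IL6ST. Pseudogenes named for IL6R, IL6ST and SOCS2 are annotated, and reads shared with such copies cannot be seen in the table.

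JAK1, the kinase that the gp130 receptors need most, had the ratio nearest to 1 of all 10 genes, with 4.68 and 4.69 FPKM at the lowest level and a log2 ratio of 0.0037. JAK2, which also serves the receptors of growth hormone and erythropoietin, had 3.48 and 3.76 FPKM at the lowest level and a log2 ratio of 0.11. STAT3, the factor that carries the signal to the nucleus, had 2.73 and 2.86 FPKM at the lowest level and a log2 ratio of 0.07. The 3 genes thus differed by 0.256%, 7.95% and 4.71% between the groups. At the quartiles of all loci the log2 ratios were -0.08 and 0.10, so JAK1 and STAT3 lay between them and JAK2 just above. These are mRNA levels, and the phosphorylation of JAK kinases and STAT3 was not measured.

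**Figure D2:**
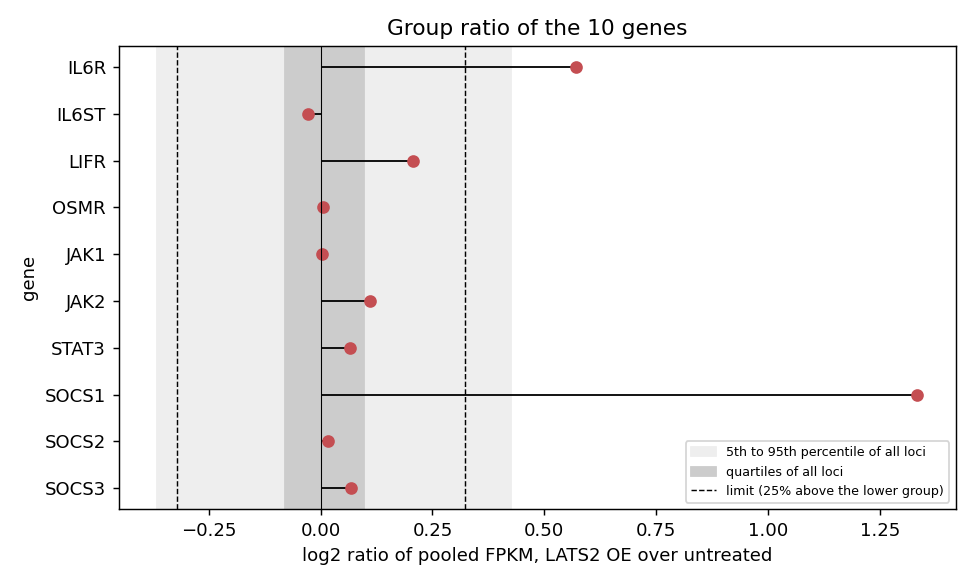
Log2 ratio of pooled FPKM, LATS2 OE over untreated, for the 10 genes (red points), with the quartiles and the 5th to 95th percentile of 14683 named loci as grey bands and the 25% limit dashed. SOCS1 at 1.33 and IL6R at 0.57 lie outside both the limit and the bands.

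SOCS1, whose protein blocks JAK kinases directly and is best known as a brake on interferon signaling, had 0.924 FPKM in untreated and 2.33 FPKM in LATS2 OE cells. The log2 ratio was 1.33, and 0.157% of the 14683 loci had one at least as high under the placement used. Loci with several possible levels cannot pass 3.16-fold under this placement. Larger rises among them are missing from the share, which therefore does not show how rare such a difference is. The untreated value is below 1 FPKM and therefore intact, whereas the digits of the LATS2 OE value would also allow 23.3 or 233 FPKM and so a ratio of 25.2 or 252. In every placement SOCS1 was thus higher in LATS2 OE cells, by 2.52-fold or more. SOCS1 lies on the minus strand of chromosome 16 in hg19 from 11348274 to 11350061, with its annotated exon sequence in 1 block of 1788 bases.

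SOCS3, which binds gp130 and is the usual feedback gene of IL-6 and STAT3, did not share this difference in size. It had 3.77 and 3.95 FPKM at the lowest level, a log2 ratio of 0.07. SOCS2, a regulator of growth hormone signaling, had 1.79 and 1.82 FPKM or 17.9 and 18.2 FPKM, a log2 ratio of 0.02. Of the 3 SOCS genes only SOCS1 was therefore past 25%. SOCS1 was the one member below 1 FPKM in a group.

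**Figure D3:**
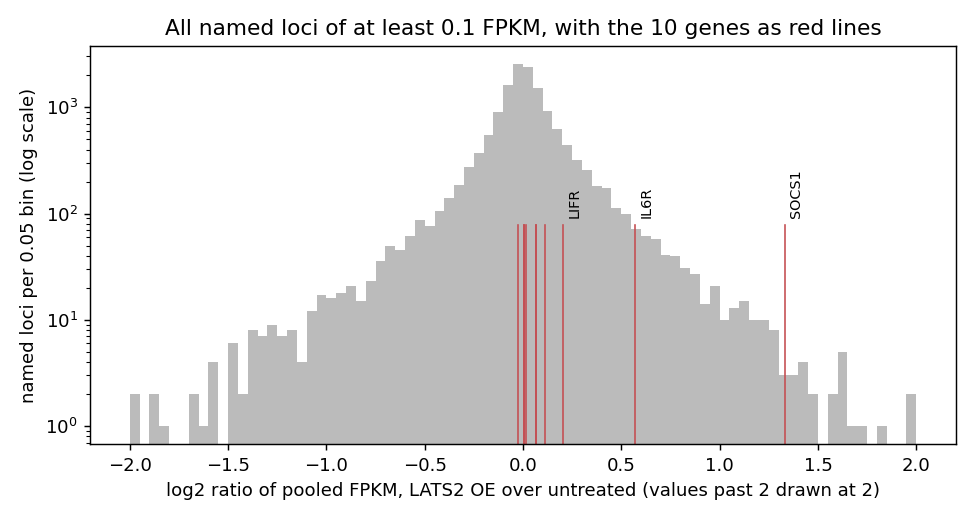
Number of named loci (log axis, bins of 0.05) by log2 ratio of pooled FPKM for the 14683 loci that reached 0.1 FPKM in each group, with the 10 genes as red lines. Under the placement used, most of the 10 lie in the central peak, IL6R lies on the right flank and SOCS1 far out in the right tail.

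Of 10 ligand genes of the family, 7 had at least 0.1 FPKM in both groups, of which IL11 was higher and IL6, LIF and CLCF1 were lower. The shares over all loci were 7.91% higher and 6.03% lower. IL6 had 5.32 FPKM in untreated and 2.51 FPKM in LATS2 OE cells at the lowest possible level, a log2 ratio of -1.08. A further locus named for IL6 and LOC401312 had 0.923 and 0.538 FPKM, both intact, a log2 ratio of -0.78. LIF, the ligand of LIFR, had 3.25 and 1.90 FPKM at the lowest level, a log2 ratio of -0.78. IL11, which signals through IL11RA and gp130, had 8.24 and 14.4 FPKM or 82.4 and 143.6 FPKM, a log2 ratio of 0.80. CLCF1, a ligand of the CNTF receptor, had a log2 ratio of -0.35. Within the limit were CTF1 and EBI3, with log2 ratios of -0.11 and 0.19, and the locus that holds CNTF, with one of -0.14. The CNTF locus is shared with ZFP91, so the level of CNTF itself is not known, although the count of 7 includes it. OSM was nearly silent, with 0.0344 and 0.0134 FPKM, and IL27 was listed at 0 in both groups. The regions given for IL6 and LIF are 16.2 and 2.80 times as long as the annotated genes, and the antisense genes of both overlap their exons.

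Among 16 other cytokine receptor genes, 11 had at least 0.1 FPKM in both groups, of which 2 were higher and 0 lower. Beside them stand shares of 7.91% higher and 6.03% lower over all 14683 loci. IL4R, the receptor chain for IL-4 and IL-13, had 6.50 and 8.46 FPKM at the lowest level, a log2 ratio of 0.38. IL31RA, the partner of OSMR in the receptor for IL-31, was low, with 0.129 and 0.163 FPKM and a log2 ratio of 0.33. IL27RA, a partner of gp130, had a log2 ratio of 0.30, and the locus that holds IL11RA is shared with GALT and had one of 0.03. The receptor chains of the interferons, IFNGR1, IFNGR2, IFNAR1 and IFNAR2, had log2 ratios of 0.20, -0.04, 0.05 and 0.03. The median over the 11 genes was 0.05.

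The remaining JAK and STAT genes stayed within the limit, as most loci did. Of 8 such genes, 7 had at least 0.1 FPKM in both groups, and 0 of these were past 25% in either direction. Of all 14683 loci, 7.91% were higher and 6.03% lower. TYK2, the third JAK kinase of the gp130 receptors, had a log2 ratio of -0.02. STAT4, at -0.29, had the lowest log2 ratio of the list. JAK3, the kinase of lymphoid cytokine receptors, had 0.0434 and 0.0427 FPKM.

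Among the other brakes on the pathway, CISH and ERBIN were past the limit. Of 20 such genes, 19 had at least 0.1 FPKM in both groups, 1 of them higher, 1 lower and 17 within the limit. Over all 14683 loci the shares were 7.91% higher and 6.03% lower. CISH, a SOCS family gene that responds to STAT5, had 1.33 and 2.33 FPKM at the lowest level, a log2 ratio of 0.81. ERBIN, listed in the table under its older symbol ERBB2IP and known to bind the ERBB2 receptor, had a log2 ratio of -0.56. SOCS4, SOCS5, SOCS6 and SOCS7 had log2 ratios of -0.08, -0.23, 0.14 and 0.05. PTPN2 and PTPN11, phosphatases that act on STAT proteins and at gp130, had log2 ratios of -0.0039 and -0.12, and PIAS3, an inhibitor of STAT3, had one of 0.09. With SOCS1, CISH was thus the other SOCS family gene past the limit, out of 8 family members measured here.

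Of 10 cytosolic partners of the receptors, each with at least 0.1 FPKM in both groups, GAB1 was higher and 0 were lower. The shares over all 14683 loci were 7.91% higher and 6.03% lower. GAB1, a docking protein that links gp130 to the MAP kinase and PI3 kinase pathways, had a log2 ratio of 0.42, while the adaptor GRB2 had one of -0.03. The median of the list was -0.03.

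Genes known to respond to STAT3 were spread to both sides. Of 40 such genes, 28 had at least 0.1 FPKM in both groups, with a median log2 ratio of 0.04. Among these 28, 8 were higher, 8 lower and 12 within the limit, beside 7.91% higher and 6.03% lower over all 14683 loci. On the higher side stood BCL3, a cofactor of NF-kB, at a log2 ratio of 1.62. The digits of BCL3 also allow a ratio of 0.307 in place of 3.07, so its direction rests on the placement used. The same holds for most genes named past the limit here, such as JUNB (0.158 in place of 1.58) and MYC (4.19 in place of 0.419). FOS and FGB keep their direction in every placement. The immediate early gene FOS, low with 0.179 and 0.339 FPKM in untreated and LATS2 OE cells, stood at 0.92. JUNB, also an immediate early gene, stood at 0.66, HIF1A, the oxygen-sensing factor, at 0.63, and CEBPB at 0.54. IRF1, VEGFA and CCL2 followed at 0.41, 0.34 and 0.33. On the lower side stood MYC at -1.25, IL6 itself at -1.08, the survival genes BCL2 and BCL2L1 at -0.87 and -0.69, and the cyclin gene CCND1 at -0.43. NNMT, PIM3 and the fibrinogen gene FGB had -0.40, -0.37 and -0.33. The liver acute phase genes CRP, HP, SERPINA3, HAMP and FGL1, and S100A9, were listed at 0 in both groups. Not all acute phase genes were silent. SAA1 had 5.33 FPKM in untreated and 4.97 FPKM in LATS2 OE cells at the lowest level, a log2 ratio of -0.10. The locus that SAA2 shares with SAA4 had 4.25 and 3.77 FPKM, a log2 ratio of -0.17. PIM1 and BCL6, also known from STAT3 signaling, had log2 ratios of 0.04 each. These genes answer to other pathways as well, and the list was written with earlier results of these data known.

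**Figure D4:**
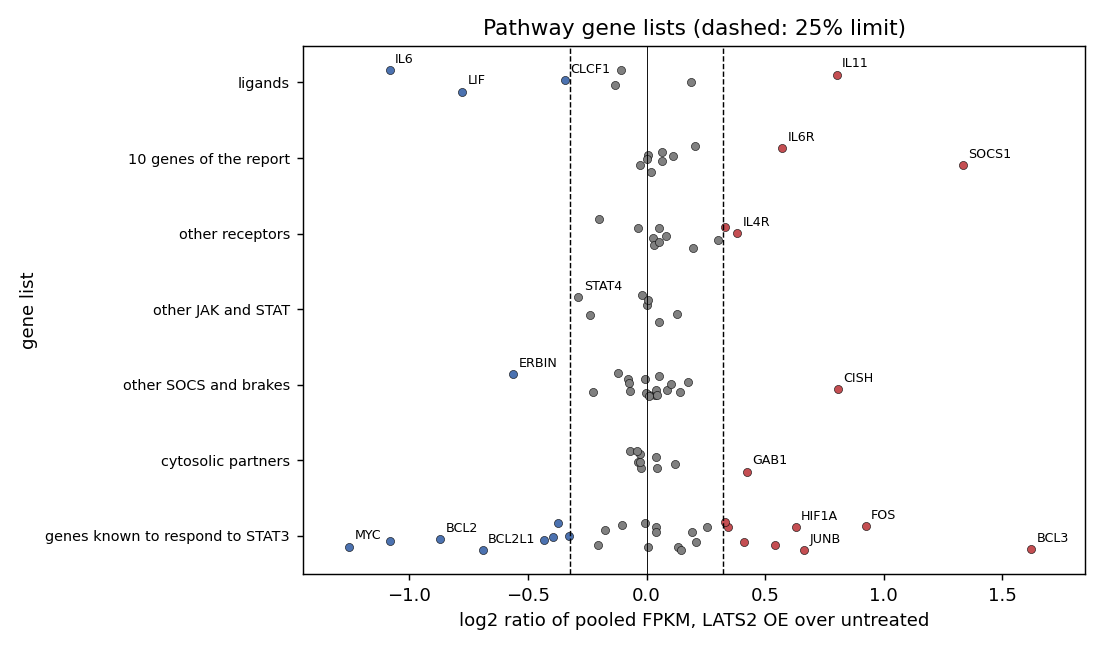
Log2 ratio of pooled FPKM, LATS2 OE over untreated, for each gene of the pathway lists with at least 0.1 FPKM in both groups (1 point per gene, red higher and blue lower than the dashed 25% limit, vertical scatter for legibility only). The ligand list and the STAT3-responsive list reach to both sides, while the other JAK and STAT genes all lie between the dashed lines.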

How the data were processed

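Poly(A) RNA of 4 LATS2 OE and 4 untreated samples was sequenced as single reads. Trimming by the authors used Trimmomatic (version 0.33), TopHat placed the reads on hg19, and the Cufflinks package gave FPKM values per locus. For TopHat, Cufflinks and the annotation, the version is not given in the sources used. The deposited table holds these FPKM values, 1 pooled value per group. Its further columns hold the authors' own comparison (fold change, test statistic, p-value, q-value and call), and no value here rests on them. Columns of single samples in use or left out numbered 0.

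Values below 1 FPKM, and those with at most 2 decimals, were taken as they stand. A value with 3 digits after the point was read as any value between 1 and 1000 with the same digits, 6 at most, and the pair of group values nearest to each other was used. This assumes no change beyond the square root of 10, which need not hold for LATS2, and gives a wrong ratio where it fails. Log2 ratios were taken without a pseudocount over 14683 named loci with at least 0.1 FPKM in both groups, and the limit for a call was 25% above the lower group. No test was possible on 1 value per group, although the samples were sequenced separately, and the test planned for columns of single samples was not run. Where a gene had several loci, the locus named for it alone was used. Loci were set beside GENCODE v44lift37, and promoters came from RefSeq. Named are all 10 genes, LATS2, every list gene past the limit, IL6, LIF, OSM, IL11, TYK2 and CISH, and a further gene fixed for naming is not reported here. Other list genes serve as examples, picked once their values were known. The genes and lists were chosen with earlier results of these data known. Python 3.11.15, pandas 2.3.3 and matplotlib 3.10.9 were used.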

Additional observations from a re-analysis of the deposited data

How the results depend on the processing

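Pooled values carry no replicate error, so a value was taken as unchanged here when it kept its side of the 25% limit and moved by less than 0.32 on the log2 scale. By this measure 36 of 40 recomputed log2 ratios of single genes were unchanged. IL6R stayed higher under every pseudocount and centring tried. With a pseudocount of 1 FPKM its log2 ratio was 0.329, just past the limit of 0.322. The values as deposited give IL6R the same ratio as the placement used, so no other placement was tried for it. Its next possible ratio of 0.149 would make it lower. No paired analysis was possible because the table holds 1 pooled value per group, and leaving out a replicate was not run for the same reason. The cause of a changed count was not tested beyond what the alternative itself does.

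With a pseudocount of 1 FPKM the log2 ratio of SOCS1 was 0.79, the other receptors had 1 higher gene, the cytosolic partners 0 and the STAT3-responsive genes 3. The ligands then had 2 lower genes and the STAT3-responsive genes 6. With a pseudocount of 0.1 FPKM the other receptors had 1 higher gene, and the STAT3-responsive genes had 7 higher and 7 lower. With a limit of 50% the 10 genes had 1 higher gene, the other receptors 0 and the cytosolic partners 0, the other brakes had 0 lower genes, and the STAT3-responsive genes had 4 higher and 4 lower. At that limit the ligands had 2 lower genes. With a limit of 20% the other JAK and STAT genes had 1 lower gene and the other receptors 3 higher genes. With at least 1 FPKM in both groups the 10 genes had 1 higher gene, since SOCS1 was left out, and the other receptors had 1. The STAT3-responsive genes then had 7 higher and 7 lower. With no minimum the ligands had 2 higher and 4 lower genes, and the STAT3-responsive genes had 10 lower.

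With the values taken as deposited, where the point is misplaced in 1 group of some genes, the log2 ratios became 7.98 for SOCS1, 3.29 for IL6ST and -3.30 for SOCS2. The 10 genes then had 3 higher genes and 1 lower gene, the ligands 0 higher and 5 lower, the other receptors 1 higher and 1 lower, the other brakes 2 higher and 2 lower, the cytosolic partners 2 higher and 1 lower, and the STAT3-responsive genes 9 higher and 10 lower. Centring moved all ratios by 0.0039 and left 7 STAT3-responsive genes lower, since FGB came to lie within the limit, and no other of these counts changed.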
